A study of Mus musculus with 2 samples.

Results

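The small-subunit cytosolic ribosomal protein genes were taken as the protein-coding genes of GENCODE vM1 (mouse genome build mm9) named Rps plus digits, with an optional a, l or x, together with Rpsa and Fau. The rule found 33 genes among 22380 protein-coding genes, and pseudogenes and the Rps6k kinases were left out. In ChIA-PET, chromatin that an RNA Pol II antibody (here 8WG16) pulls down is ligated so that fragments near each other in the nucleus are sequenced as a pair. Each paired-end tag (PET) that linked 2 Pol II peaks, here called anchors, was counted as 1 PET of that pair of anchors. Both groups were mouse embryonic stem cells (ESCs), derived from blastocysts and grown in serum with LIF on gelatine, with the CreERT2; Roninflox/flox genotype, that is, a floxed Ronin (Thap11) gene and a Cre recombinase that tamoxifen activates. The Ronin KO cells had received tamoxifen for 4 days and the control cells ethanol for 4 days, so loss of Ronin and exposure to tamoxifen cannot be told apart. Each condition was deposited as 1 set of interactions that the authors had merged from 2 experiments, which leaves no replicates to measure a spread from. Every p-value and 95% interval given here compares these 2 libraries and covers counting error only.

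The small (40S) ribosomal subunit reads messenger RNA: it binds initiation factors, scans to the start codon and holds the codons against tRNA. Each of its proteins is made by its own gene, and these genes lie scattered over the genome and are transcribed heavily and in step with each other. Their promoters typically begin transcription within a run of pyrimidines. Ronin is a DNA-binding protein of the THAP family that is needed in ESCs and binds promoters of many housekeeping genes. The study asked whether contacts between such promoters depend on it.

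The Ronin KO set held 44328 pairs of anchors with 65276 PETs and the control set 128267 pairs with 156097 PETs, so Ronin KO PETs came to 41.8% of control PETs (95% interval 41.4 to 42.2). Intrachromosomal PETs made up 18.6% of the Ronin KO and 15.8% of the control total, and 97.9% of Ronin KO and 98.3% of control pairs rested on a single PET. Pairs of 50 PETs or more, 61 in Ronin KO and 83 in control, held 17375 PETs in Ronin KO and 22239 in control, and without them Ronin KO PETs came to 35.8% of control PETs (35.4 to 36.2). Thap11 itself had 46 PETs in Ronin KO and 109 in control, which is no check of the deletion, since a contact count does not measure the floxed part. The ESC label could be compared with markers: all 10 ESC genes had PETs, 5 to 42 in Ronin KO and 23 to 194 in control, with Pou5f1 at 11 in Ronin KO and 23 in control. Together the ESC genes had 263 PETs in Ronin KO and 808 in control, or 32.6% (28.2 to 37.5), an interval that overlaps that of the small-subunit genes, and 1 of the 10, Zfp42, was called lower by the exact test used for single genes, with 37 PETs in Ronin KO and 194 in control. Of 12 annotated markers of other cell types, 6 had PETs, at most 4 in Ronin KO and 2 in control, and T, Vim, Col1a1, Col1a2, Col3a1 and Thy1 were at 0 in both.

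All 33 genes had linking PETs in both libraries, and all had fewer in Ronin KO. So did 11393 of the 12817 protein-coding genes with PETs, so fewer PETs alone did not set the 33 genes apart. Together the 33 genes had 1128 PETs in 1033 pairs in Ronin KO and 3814 PETs in 3652 pairs in control. That is 29.6% of control (27.7 to 31.6), against 42.1% (41.7 to 42.5) for the PETs of all other pairs. Counted as pairs, Ronin KO reached 28.3% of control (26.4 to 30.3) at these genes and 34.7% (34.4 to 35.1) elsewhere. The small-subunit genes thus held 1.73% of all PETs in Ronin KO and 2.44% in control.

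The genes lay on 14 chromosomes, 9 of them on chromosome 7, and an anchor covered the annotated start of all 33 in both libraries. Their anchors were wide. The median was 18.3 kb in Ronin KO and 17.9 kb in control, and the median of all anchors was 4.74 kb in Ronin KO and 3.28 kb in control. At 7 genes the anchors held no other protein-coding gene in either library (Rps20, Rps12, Rps29, Rps23, Rps10, Rps14 and Rps4x). At the other genes a PET cannot be assigned to the ribosomal protein gene rather than its neighbours, and the Fau anchor covered 13 further genes in Ronin KO and 12 in control. Rps2 shared one of its anchors with Rpl3l, so these genes were counted from largely the same PETs. Taking the anchors with no other gene alone left 207 PETs in Ronin KO and 745 in control, or 27.8% (23.7 to 32.5).

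The promoter sequences of 4 members follow, to show which known motifs lie at their starts. They come from the RefSeq promoter table (GRCm38.p6), run from 120 bases before to 20 after the start, and have capitals for matches to 4 words searched on both strands: CCGGAAG (the ETS family word), AAGATGGC (the YY1 word), CTTTCC and CTTTTC (pyrimidine runs). The first 3 belong to genes with significantly fewer PETs in Ronin KO and the last to the gene with the highest ratio. That last ratio, of Rps16, was 30.9% once the control anchors over its wider Ronin KO anchor were joined. Whether the marked words go with the ratios was not tested.
Rps27 (chr3:90213629-90213768, minus strand): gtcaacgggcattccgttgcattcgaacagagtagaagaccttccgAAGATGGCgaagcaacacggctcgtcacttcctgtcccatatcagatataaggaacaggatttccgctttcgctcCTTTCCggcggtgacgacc
Rps15a (chr7:118116128-118116267, minus strand): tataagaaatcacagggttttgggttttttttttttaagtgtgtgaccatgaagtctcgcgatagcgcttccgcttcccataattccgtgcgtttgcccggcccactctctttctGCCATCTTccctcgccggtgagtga
Rps2 (chr17:24719943-24720082, plus strand): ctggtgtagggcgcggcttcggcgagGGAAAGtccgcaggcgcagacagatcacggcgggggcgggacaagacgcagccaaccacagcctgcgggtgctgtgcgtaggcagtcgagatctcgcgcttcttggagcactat
Rps16 (chr7:28350569-28350708, plus strand): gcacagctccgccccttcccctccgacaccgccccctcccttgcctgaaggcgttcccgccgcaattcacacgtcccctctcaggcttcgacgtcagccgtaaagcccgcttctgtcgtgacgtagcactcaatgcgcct

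Of the 33 genes, 25 matched an entry of that table (Rps3a under its RefSeq symbol Rps3a1), and Rps20, Rps27a, Rps14 and Rps29 were among those that did not. No promoter of these 25 genes, read from 250 bases before to 50 after the start, held an exact copy of the Ronin-binding motif, which 0.673% of all 32851 promoters did. With so rare a word, its absence from 25 promoters tells little about Ronin binding. The study took Ronin-bound genes from Ronin peaks at promoters, which were not used here. CCGGAAG stood in 11 of 25 (44.0%), among them Rps2, Rps6 and Rpsa, against 8.86% of all promoters. AAGATGGC stood in 3 (Rps27, Rps15a and Fau), or 12% against 2.75%. Within 20 bases of the start on the sense strand, CTTTCC stood in Rps27 and Rps10 and CTTTTC in Rps12, together 12% against 3.32% of all promoters. A small-subunit gene was counted if any of its entries held the word, whereas the share of all promoters counts single entries, so these percentages are not counted alike. These matches are letters in a window and were not tested as binding sites.

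**Figure D1:**
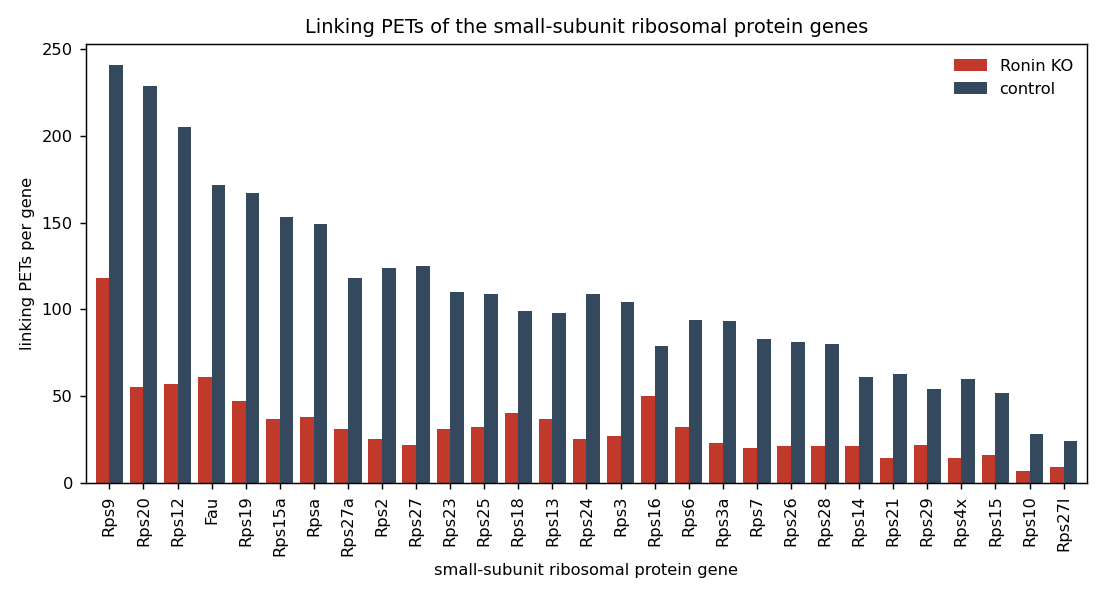
Linking PETs (vertical axis, linear) of 29 small-subunit ribosomal protein genes (horizontal axis, ordered by PETs in both libraries together), with the Ronin KO bar left of the control bar. The Ronin KO bar is the shorter one at all of them, the highest being Rps9 at 118 in Ronin KO and 241 in control.

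PETs per gene spanned 7 to 118 in Ronin KO and 24 to 243 in control, with medians of 31 in Ronin KO and 104 in control. The median over all protein-coding genes with PETs was 6 in Ronin KO and 15 in control. The order of the genes was similar in both libraries (Spearman's rho 0.85 across 33 genes), and genes with wider anchors had more PETs (rho 0.62 in Ronin KO and 0.61 in control). These correlations describe genes that share libraries and depth, and anchor width differs between them. Per-gene differences were tested with a two-sided exact binomial test against the Ronin KO share of all PETs (29.5%), adjusted by the Benjamini-Hochberg method over the 8973 protein-coding genes with at least 10 PETs in both libraries together. An adjusted p-value under 0.05 was called.

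Of the 33 genes, 6 (18.2%) had significantly fewer PETs in Ronin KO than this share gives, against 3.63% of all genes tested, and 0 had significantly more (2.84% of all genes). The called share grows with depth, and these genes carried more PETs than most: among genes with at least 100 PETs, 16.6% were called lower, and 10 of the 25 small-subunit genes at that depth. A share below 29.5% was found at 31 of 33 genes and at 61.8% of all genes tested. The median Ronin KO share was 20.8% at the small-subunit genes and 26.7% over all genes. On the scaled log2 scale, with 1 added to each count, the median was -0.60 at the small-subunit genes and -0.12 over all genes.

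The lowest ratio belonged to Rps27, which encodes eS27, a zinc-binding protein of the subunit. It lies on chromosome 3 (90016593 to 90017573 in mm9, minus strand) and had 22 PETs in Ronin KO and 125 in control, or 17.6% (10.7 to 27.8; exact test, adjusted p = 0.00191). All 22 Ronin KO PETs of Rps27 were interchromosomal, whereas 6 of its 125 control PETs stayed on chromosome 3. No partner of Rps27 was found in both libraries. Its anchor also held Rab13 and Nup210l and was as wide in Ronin KO (13.6 kb) as in control (13.8 kb).

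Rps2, whose product uS5 lines the messenger RNA entry channel, had 25 PETs in Ronin KO and 124 in control, or 20.2% (12.6 to 31.2; exact test, adjusted p = 0.0103). Rps20 on chromosome 4, which encodes uS10 in the head of the subunit, had 55 PETs in Ronin KO and 229 in control, or 24.0% (17.6 to 32.4; exact test, adjusted p = 0.0035). No other protein-coding gene lay near its anchor, so Rps20 is the called gene whose count is least shared.

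Rps15a passed the threshold narrowly. This gene, whose product uS8 binds the central domain of 18S rRNA, had 37 PETs in Ronin KO and 153 in control, or 24.2% (16.4 to 34.8; exact test, adjusted p = 0.0391). Its call was lost when the share was taken from pairs with an anchor near a protein-coding gene (28.9%), where the exact test gave adjusted p = 0.0585 and 4 of the 33 genes were called lower (3.03% of all genes). Without the pairs of 50 PETs or more, which held no small-subunit gene, the share was 26.4%, 1 of the 33 was called lower (Rps27, 1.37% of all genes) and 1 higher (Rps16, 3.74% of all genes). The Rps16 anchor was 59.2 kb wide in Ronin KO and 14.7 kb in control. With the control anchors over the wider stretch joined, its ratio was 30.9%.

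The number of called genes followed the share they were compared with, and so did the background. With the share from median-of-ratios size factors (27.3%), 3 of the 33 were called lower (2.1% of all genes). With the share from the long-range and interchromosomal read pairs that the study lists for each library, 29 were (32.4% of all genes). With equal shares all 33 were (62.8% of all genes). With pairs of a deposited adjusted p-value under 0.05 alone, Rps2 was the 1 gene called lower (2.47% of all genes) and Rps9 the 1 called higher (2.72%). With pairs of at least 2 PETs, 10 of the 33 genes could be tested, and 4 were called lower (Rps12, Rps19 and Rps24 among them, 30.9% of all genes) and 1 higher (Rps9, 7.72%). In this last setting the share of small-subunit genes called lower was close to the background.

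The other well-covered genes did not pass. Rps12 had 57 PETs in Ronin KO and 205 in control, and Rpsa, which encodes uS2, also known as the laminin receptor, had 38 and 149 (exact test, adjusted p = 0.0715 and 0.079). Rps19, a gene whose human counterpart is mutated in Diamond-Blackfan anaemia, had 47 PETs in Ronin KO and 167 in control. Fau, which encodes a ubiquitin-like protein fused to the ribosomal protein eS30, had 61 PETs in Ronin KO and 172 in control, that is, 35.5% (26.0 to 47.8). The ratios of Rps12, Rpsa and Rps19 lay between 25.5% and 28.1%, so they did not stand apart from those of the called genes.

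A further 3 genes were among the 5 lowest ratios without being called. Rps21 had 14 PETs in Ronin KO and 63 in control (22.2%), Rps24 had 25 and 109 (22.9%), and the X-linked Rps4x had 14 and 60 (23.3%). Their upper bounds reached 40.1%, 35.7% and 42.2%. The fewest PETs were counted at Rps10, with 7 in Ronin KO and 28 in control, and at Rps27l, a paralogue of Rps27, with 9 and 24, where the intervals ran from 9.22% to 58.6% and from 15.3% to 83.6%.

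**Figure D2:**
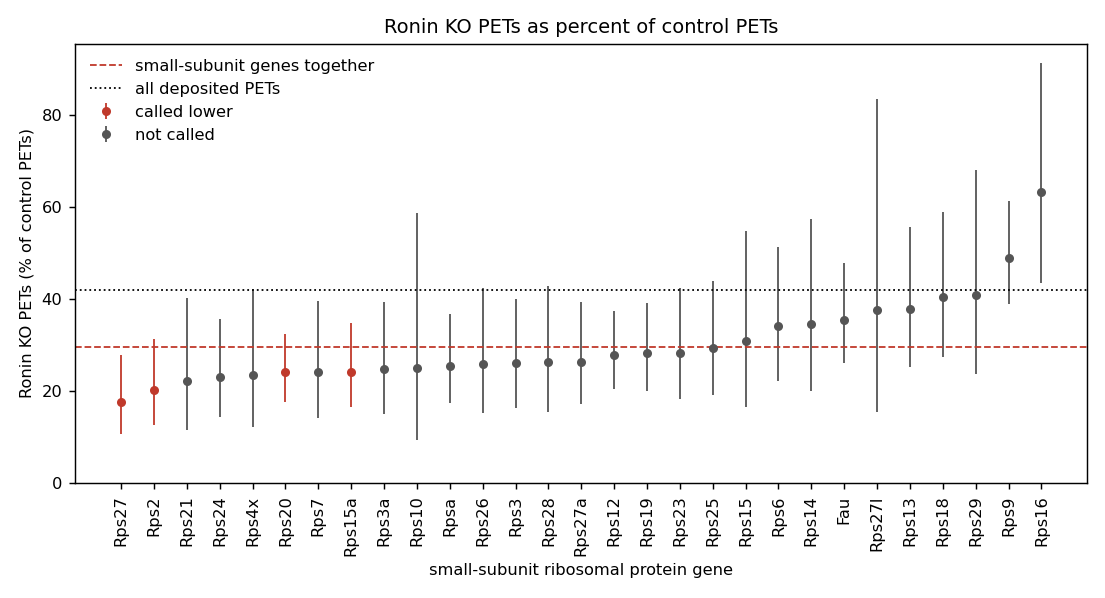
Ronin KO PETs as percent of control PETs (vertical axis) for 29 small-subunit genes, ordered by that ratio, with exact 95% intervals as bars. Red points mark 4 genes called lower, the dashed line all 33 genes together (29.6%) and the dotted line all PETs (41.8%). The points of 27 genes lie under the dotted line, and those of Rps9 and Rps16 above it.

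Ratios were close together: 22 of 33 genes lay between 20% and 30%, and the median was 26.3%. The interval lay wholly below the ratio of all PETs (41.8%) at 16 genes and wholly above it at 1, Rps16. This count was not made over all genes, and it depends on the ratio chosen. Without pairs of 50 PETs or more the ratio of all PETs was 35.8%. Fewer intervals lay wholly below 35.8%, and that of Rps9 also lay wholly above it. The 5 highest ratios belonged to Rps16 (63.3%, 43.5 to 91.3), Rps9 (49.0%, 39.0 to 61.3), Rps29 (40.7%, 23.6 to 68.0), Rps18 (40.4%, 27.3 to 58.9) and Rps13 (37.8%, 25.1 to 55.6). None of the 5 was called in either direction. Rps16 encodes uS9, whose tail reaches the tRNA, Rps18 encodes uS13 of the head, Rps29 the zinc-binding uS14 and Rps13 uS15. At Rps16 and Rps18 an anchor border moved with the value, and at Rps9 a single partner did.

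At Rps16 and Rps18 the anchors differed between the libraries. The Rps16 anchor was 59.2 kb wide in Ronin KO and 14.7 kb in control, where the neighbouring Med29, Paf1 and Zfp36 belonged to a separate anchor. The Rps18 anchor was 54.5 kb wide in Ronin KO and 22.4 kb in control. When the control anchors that overlap the wider stretch were joined, Rps16 had 50 PETs in Ronin KO and 162 in control, or 30.9% (22.0 to 42.6), and Rps18 had 40 and 139, or 28.8% (19.7 to 41.2). Joined in this way for all genes, the PETs came to 28.6% of control (26.7 to 30.5), the ratios ran from 17.6% to 48.6%, and 32 of 33 were below 41.8%. The gene that stayed above was Rps9.

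Rps9, whose product uS4 helps form the messenger RNA entry site, had 118 PETs in Ronin KO and 241 in control, but one partner region carried many of them. This region lies within Ankrd17, an ankyrin repeat gene on chromosome 5. It had 64 PETs with Rps9 in Ronin KO, 32 with each of 2 adjoining anchors, and 48 in control with a single wider anchor. These were the most frequent contacts of any small-subunit gene, and whether both regions lie apart in the genome of this ESC line was not tested. Both settings in which Rps9 was called higher kept these PETs. The other partners that had over 6 PETs with such a gene in a library, Tlk1 and Tcp11, had fewer in Ronin KO. Without this region Rps9 had 54 PETs in Ronin KO and 193 in control, or 28.0% (20.3 to 38.0), a ratio like that of Rps12 (27.8%). The longest stretch of identical sequence between these anchors was 72 bp, in an intron of Ankrd17, under the 100 bp used here to mark a shared stretch.

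**Figure D3:**
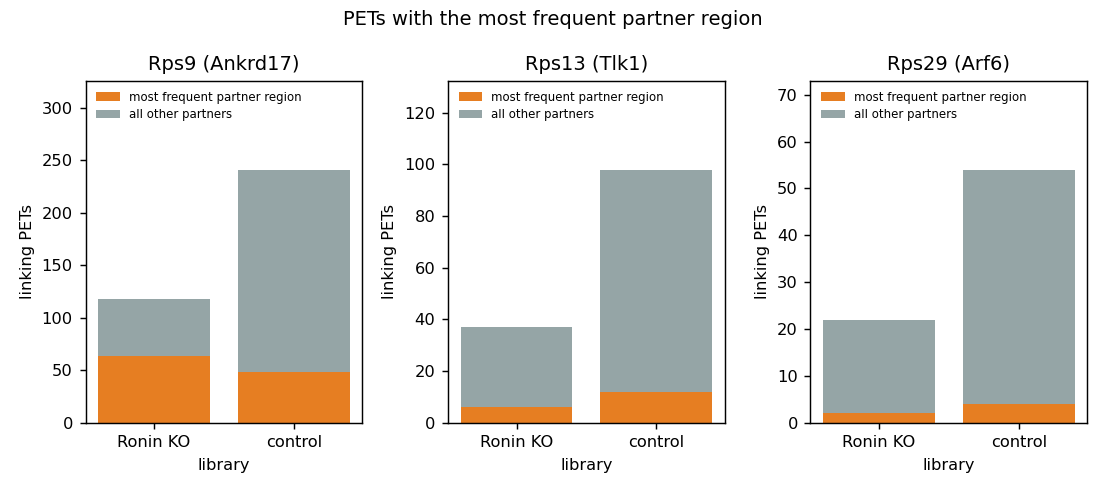
Linking PETs (vertical axis, a separate linear scale for each gene) of Rps9, Rps13 and Rps29 in Ronin KO (left bar) and control (right bar), split into the partner region with most PETs (orange, first gene of that region in the panel title) and all other partners (grey). The Ankrd17 region gave 64 of 118 Rps9 PETs in Ronin KO and 48 of 241 in control.

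Rps13 and Rps29 also had a frequent partner, with fewer PETs in Ronin KO than in control. Rps13 had 6 PETs in Ronin KO and 12 in control with the body of Tlk1, a kinase gene on chromosome 2. Without them Rps13 had 31 PETs in Ronin KO and 86 in control, or 36.0% (23.1 to 54.9). Rps29 had 2 PETs in Ronin KO and 4 in control with an anchor beside Arf6, about 217 kb away on chromosome 12, and without them 20 and 50 (40.0%). The Rps29 and Arf6 anchors share 190 identical bp in Ronin KO and 197 in control, so misplaced reads and a true contact cannot be told apart for this pair. At all other genes the most frequent partner region held at most 6.06% of the PETs.

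Some of the recurrent pairs joined anchors that contain the same sequence, where a read cannot always be placed. Between the anchors of 33 pairs of these genes in Ronin KO (41 PETs) and 48 in control (60 PETs) at least 100 identical bp were found. Removing these pairs left 29.0% of control (27.0 to 31.0). The number of called genes stayed at 6 (3.6% of all genes), Rps27, Rps20, Rps2 and Rps15a among them, but the set of called genes changed. Only pairs of the small-subunit genes were searched and removed, so the background kept such pairs between other genes. Stretches in annotated exons are printed for 2 pairs seen in both libraries, from mm9 and in lower case throughout, to show what the anchors have in common. Only the coding part of the Tsen34 stretch is given. Among those not printed, Rps2 and an anchor of U2af1 on the same chromosome, with 1 PET in each library, have 113 identical bp that lie in the Rps2 coding sequence.
Rps6 coding stretch (chr4:86500634-86500790, minus strand, 157 bp): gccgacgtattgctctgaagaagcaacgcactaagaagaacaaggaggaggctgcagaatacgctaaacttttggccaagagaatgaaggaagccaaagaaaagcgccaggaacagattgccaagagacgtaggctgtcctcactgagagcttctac
Tsen34 coding stretch in the Rps9 anchor (chr7:3646204-3646289, plus strand, 86 bp): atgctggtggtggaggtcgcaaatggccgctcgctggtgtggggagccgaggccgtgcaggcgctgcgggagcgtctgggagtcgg

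The Rps6 stretch is identical to a part of Rps6-ps1 on chromosome 15, annotated in this release as a protein-coding gene, and the pair of Rps6 with that anchor had 1 PET in Ronin KO and 1 in control. Rps6 encodes eS6, the subunit protein phosphorylated by the S6 kinases. Tsen34 encodes a subunit of the tRNA splicing endonuclease. Its stretch recurs inside a non-coding transcript (4930526A20Rik) in the anchor of Tcp11 on chromosome 17 (28213215 to 28213300), and the Rps9 anchor, which holds Tsen34, had 4 PETs with that anchor in Ronin KO and 7 in control. For such pairs, misplaced reads and a true contact cannot be told apart from these counts.

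Most contacts were made once and between chromosomes. Of the 1033 pairs in Ronin KO and 3652 in control, 1005 and 3564 rested on 1 PET, and interchromosomal PETs came to 1031 in Ronin KO and 3529 in control (29.2%, 27.2 to 31.3). The study's methods reserve high confidence for pairs with 3 independent PETs. Only 5 of these pairs in Ronin KO and 12 in control had 3 PETs or more. The study kept interchromosomal pairs out of its own analyses, so the intrachromosomal PETs are given separately: 97 in Ronin KO and 285 in control, or 34.0% (26.8 to 43.0), against 49.2% (48.2 to 50.3) for all intrachromosomal PETs. With intrachromosomal pairs alone, 18 of the 33 genes had enough PETs to be tested. None was called, against 1.03% of 1748 genes called lower and 1.95% called higher, and 13 of the 18 had a share under the overall 33.0%.

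Contacts on the same chromosome were found at all distances. PETs under 100 kb numbered 18 in Ronin KO and 38 in control (47.4%, 25.4 to 85.1), those from 100 kb to 1 Mb 13 and 34 (38.2%), those from 1 to 10 Mb 11 and 36 (30.6%), and those over 10 Mb 55 and 177 (31.1%, 22.5 to 42.3). The intervals of the 4 classes overlapped. The longest class held 57.6% of the intrachromosomal pairs in Ronin KO and 64.4% in control, against 44.4% and 50.3% of all intrachromosomal pairs. Near neighbours included Vps11, a vacuolar sorting gene about 41 kb from Rps25, with 2 PETs in Ronin KO and 1 in control. Fbl, the rRNA methyltransferase fibrillarin, lay about 170 to 193 kb from Rps16 and had 1 PET in each library. Rabac1, about 83 kb from Rps19, also had 1 in each. In control alone, Rps27a had 3 PETs with the anchor of Ccdc88a and Prorsd1, 22.8 kb away, and Rps16 had 3 with the Med29 and Paf1 anchor that the wider Ronin KO anchor takes in.

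Partners were counted as distinct anchors per gene. They summed to 1038 in Ronin KO and 3690 in control, or 28.1% (26.2 to 30.1), close to the ratio of PETs, since few pairs had more than 1 PET. A gene had 7 to 65 partners in Ronin KO (median 30), on 6 to 19 chromosomes, and 24 to 234 in control (median 104), on 14 to 21 chromosomes. Fau had 60 in Ronin KO and 168 in control, and Rps20 had 52 and 221. Partner anchors lay near a protein-coding gene in 92.4% of the pairs in Ronin KO and 90.4% in control, against 90.7% and 90.0% of all anchors, so in this the partners were like any other anchor.

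Few pairs were seen in both libraries. Of the 1033 pairs in Ronin KO, 70 (6.78%, 5.32 to 8.48) were overlapped at both anchors by a control pair, against 3.86% (3.68 to 4.05) of other Ronin KO pairs. Of the 3652 control pairs, 68 (1.86%, 1.45 to 2.36) were found in Ronin KO, against 1.34% of other control pairs. Among control pairs with at least 2 PETs the order turned, with 9 of 88 at the small-subunit genes (10.2%, 4.78 to 18.5) and 27.0% elsewhere. Among intrachromosomal pairs it turned in both libraries, but within the intervals, with 10.9% (5.34 to 19.1) at the small-subunit genes and 11.9% elsewhere in Ronin KO, and 3.70% (1.79 to 6.71) and 4.84% in control. Wider anchors overlap more easily, and the part of anchor width in these shares was not tested. A partner found in both libraries existed for 27 genes, and none for Rps27, Rps27a, Rps24, Rps7, Rps15 and Rps10. These 6 had 7 to 31 partners in Ronin KO. This count was not made over all protein-coding genes, so it does not set any of them apart.

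The partner region shared by most small-subunit genes was a short anchor in a satellite-rich stretch of chromosome 2 at 98506239 to 98507615, annotated with Gm10800. It had PETs with 12 of the genes in Ronin KO and 21 in control. That anchor had 7485 PETs in all in Ronin KO and 9614 in control, of which 14 in Ronin KO and 40 in control were with these genes. Next came the metallothionein genes Mt1 and Mt2 on chromosome 8, with 6 of the genes in Ronin KO and 11 in control. In Ronin KO the third was an anchor annotated with Frmd8 on chromosome 19, which contacted 5 of the genes in Ronin KO and 7 in control. In control the third place went to clusters of replication-dependent histone genes on chromosome 13, the one with Hist1h1a and Hist1h1c contacting 2 of the genes in Ronin KO and 8 in control. These regions also had many PETs in all. In control, 11 of 455 PETs of the Mt1 and Mt2 region, 7 of 655 of Frmd8 and 9 of 792 of the Hist1h1a cluster were with these genes. In Ronin KO the values were 6 of 156, 5 of 225 and 2 of 291. Whether any region preferred the small-subunit genes was not tested. Gnb2l1, which encodes RACK1, itself a protein of the 40S subunit outside the naming rule, had PETs with 1 in Ronin KO (Rps14) and 7 in control, Rps14 among them.

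Other shared partners included regions of Nfs1, Rbm39 and Romo1 (none of the genes in Ronin KO and 7 in control), of Mreg and Pecr (3 and 6) and of the gene of cytoplasmic actin, Actb (1 and 6). Npm1, which encodes the nucleolar ribosome assembly protein nucleophosmin, had 8 PETs with 6 of the genes in control, 2 each with Fau and Rps19, and its anchor had none with them in Ronin KO. The anchor of Eef1a1, the translation elongation factor, had 2 control PETs each with Rps12 and Rps20. In Ronin KO, 3 partner regions were shared by 5 or more of the genes and 37 were in control, while 825 of 915 Ronin KO regions and 2103 of 2702 control regions had a single gene. Histone genes of any cluster gave 14 PETs in Ronin KO and 53 in control, or 26.4% (13.5 to 48.3).

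Contacts among the small-subunit genes themselves numbered 5 in Ronin KO, with 5 PETs, and 38 in control, with 40 PETs. Ronin KO PETs were 12.5% of control (3.85 to 31.7), an interval that takes in the 29.6% of all their PETs, so a difference between these ratios was not detectable at this depth. They made up 0.484% of the genes' pairs in Ronin KO and 1.04% in control, and no background share was computed beside these. In Ronin KO, 4 of the 5 pairs involved Rps9, among them those with Rpsa, Rps15 and Rps29. All were interchromosomal single PETs, and 1 of the 5 was found in both libraries.

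In control, 29 of the 33 genes had a contact with another, the exceptions being Rps15a, Rps27a, Rps3 and Rps10. Rps20 and Rps4x had 5 each. Of the 38 pairs, 2 had more than 1 PET, and 3 were intrachromosomal. Rps24 on chromosome 14 and Fau on chromosome 19 had 2 PETs, between anchors that share an identical stretch of 105 bp. With anchors that hold no other gene, 2 of the 38 control pairs and none of the 5 Ronin KO pairs were left, so nearly all of these contacts involve an anchor shared with neighbouring genes. An adjusted p-value under 0.05 in the authors' table was held by all 5 Ronin KO pairs and by 20 control pairs.

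Contacts with the large-subunit genes, which encode the proteins of the 60S subunit, were more numerous: 21 PETs in Ronin KO and 81 in control, or 25.9% (15.2 to 42.3). The 49 large-subunit genes outnumber the 33 small-subunit genes, so more such pairs are possible, and a rate per possible pair was not computed. Some small-subunit anchors also hold a large-subunit gene, as an Rps2 anchor holds Rpl3l. Some control pairs were therefore counted both here and among the small-subunit genes. These contacts were 1.94% of the pairs in Ronin KO and 2.14% in control, beside 1.51% and 1.79% of the anchors of all pairs. Rps9 and Rps2 had 7 such pairs each in control, Rps9 with Rpl15 and Rpl12 among them. The pair of Rps9 and Rpl15 was found in both libraries, with 1 PET in each, as were Rps18 with Rpl17 and Rps19 with Rpl26. Pairs with 2 PETs included Rps15a with Rpl3 and Rps23 with Rpl12, both in control.

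**Figure D4:**
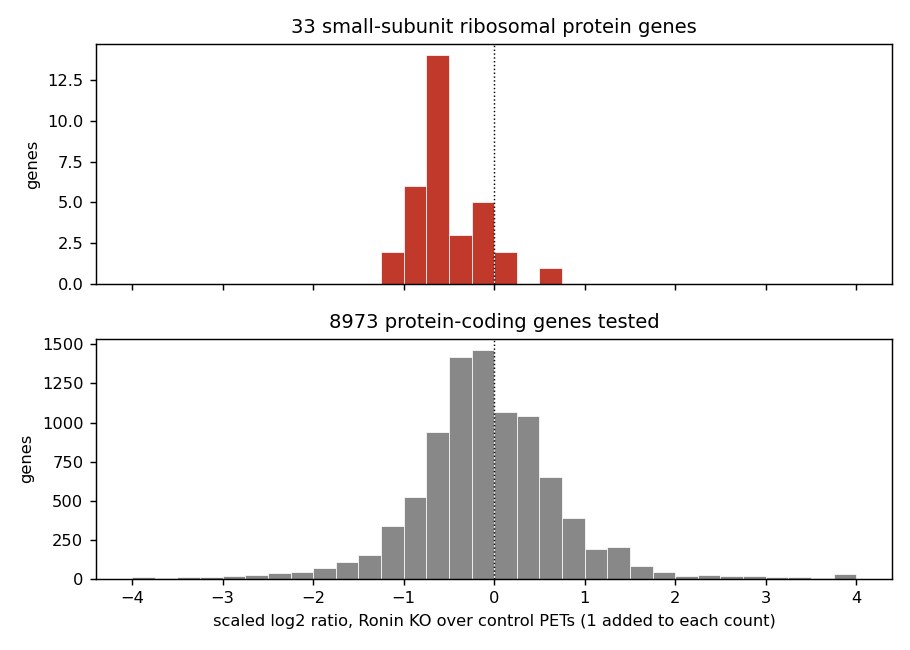
Number of genes (vertical axes, separate linear scales) by scaled log2 ratio of Ronin KO over control PETs (horizontal axis, 1 added to each count, 0 at the ratio of all PETs), for the small-subunit genes (top) and all protein-coding genes tested (bottom). Medians are -0.60 and -0.12.

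The large-subunit genes had a similar ratio. Their 47 genes with PETs had 1345 PETs in Ronin KO and 4682 in control, or 28.7% (27.0 to 30.5), and the intervals of both subunits overlap. Of the 47, 44 had a share below 29.5% and 9 were called lower (19.1%), with Rpl24 at 24 PETs in Ronin KO and 142 in control (exact test, adjusted p = 0.000347). Rpl3l is among these 9 and shares an anchor with Rps2, so the subunits are not fully separate counts. The 44 assembly factor genes of the small subunit, such as Fbl, Nop56 and Nop58, had 662 PETs in Ronin KO and 1806 in control, or 36.7% (33.5 to 40.1). Of their 41 tested genes, 21 were below 29.5% and none was called in either direction, against 61.8% of all tested genes below the share and 3.63% called lower. The 22 genes of initiation factors that bind the 40S subunit had 530 PETs in Ronin KO and 1565 in control, or 33.9% (30.6 to 37.4), with 14 of 21 below the share (66.7%) and 1 called lower (4.76%), both near the background. The median scaled log2 ratio was -0.60 for the small subunit, -0.52 for the large subunit, -0.03 for the assembly factors and -0.28 for the initiation factors, and these differences between lists were not tested.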

How the data were processed

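RNA Pol II ChIA-PET of mouse ESCs was analysed, 1 library per condition merged by the authors from 2 experiments. Per the submitters' processing notes and the study's methods, linkers were trimmed with cutadapt, mates were mapped to mm9 with Bowtie 1.1.1, duplicates were collapsed, peaks were called with MACS 1.4.2 and intrachromosomal PETs under 4 kb were removed. The deposited values used were counts of PETs per pair of peaks. The authors' distance, a signed score in bp, and the deposited p-value (hypergeometric test) with its adjusted form served only to class pairs. The deposited count per peak was not used.

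A pair counted once for each protein-coding gene of GENCODE vM1 (mm9) within 1 kb of an anchor. Ratios have exact conditional binomial and shares exact binomial 95% intervals, and genes the two-sided exact binomial test described in the results. The test was checked on simulated data. Sequences were read from NCBIM37 (mm9) with pysam 0.24.0, and statistics used Python 3.11.15, numpy 2.4.6, pandas 2.3.3 and scipy 1.17.1, with matplotlib 3.10.9 for plots. Pairs were found in both libraries where both anchors overlapped by at least 1 bp.

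The genes, lists and tests were chosen with earlier results of these data known. Genes were named with values if called, among the 10 with most PETs, the 5 lowest or 5 highest ratios, or in a contact with another member, and other genes as partners with at least 2 PETs or in both libraries, or as sharing an anchor. Shared partner regions, the lowest counts (Rps10 and Rps27l) and examples from other lists were named after their values were seen. There were 16 alternatives planned and 5 added after seeing the data. Some genes and a sequence are not reported here individually and are left out of the plots that name genes, but their PETs are in the sums and counts.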

Additional observations from a re-analysis of the deposited data

How the results depend on the processing

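No paired analysis was possible because each condition is 1 merged library, and no replicate could be left out for the same reason. With intrachromosomal pairs alone, 18 genes were called lower and 34 higher, of the small-subunit genes 0 lower, their PETs were 34.0% of control, their partners 92 in Ronin KO and 273 in control, contacts among them 0 in Ronin KO and 3 in control, and 3.70% of control pairs were found in both libraries. With pairs of an adjusted p-value under 0.05, 1 small-subunit gene was called lower (Rps2) and 1 higher (Rps9), the PETs were 36.0% of control, 20 contacts among the genes were left in control, and 1.14% of control pairs were found in both. With pairs of at least 2 PETs, 63 genes were called higher, 1 of them Rps9, the PETs were 49.2% of control, partners 28 in Ronin KO and 90 in control, contacts among the genes 0 in Ronin KO and 2 in control, and 5.68% of control pairs were found in both. In this setting the small-subunit genes had 123 PETs in Ronin KO and 250 in control. The single region in Ankrd17 gave Rps9 64 of the 123 and 48 of the 250. With anchors near no other gene, those contacts were 0 in Ronin KO and 2 in control, and extending anchors by 5 kb raised the pairs found in both to 2.66%. The number of calls followed the null share: a share of 0.5 called 5638 genes lower and 99 higher, with all 33 small-subunit genes lower. Size factors called 188 genes lower, with 3 small-subunit genes. The share from the study's long-range and interchromosomal read pairs called 2909 lower and 149 higher, with 29 small-subunit genes lower. Scaling by the totals of those read pairs gave 45.0% of control, which does not compare with the unscaled 41.8% of all PETs. The Ronin KO share of all PETs was 30.6% with pairs of an adjusted p-value under 0.05 and 42.2% with pairs of at least 2 PETs. These are shares of the PETs of both libraries together. They do not compare with the 36.0% and 49.2% given for the small-subunit genes, which are percent of control. The median share in the first setting was 24.2% at the small-subunit genes tested and 27.7% over all genes tested. In the second setting these medians were 26.1% and 30.4%. Of the alternatives added, a filter of at least 100 PETs called 87 genes higher and 10 small-subunit genes lower, and pairs under 50 PETs called 123 genes lower, with 1 small-subunit gene lower (Rps27) and 1 higher (Rps16, whose anchor was wider in Ronin KO than in control). The cause of these shifts was not tested. The sum over the 33 genes stayed below the ratio of all PETs computed the same way for intrachromosomal, interchromosomal and under-50-PET pairs. Single-PET pairs limit what can be said of any one contact.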
